A study of Mus musculus with 8 samples.

Results

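A group of 38 genes that mark macrophages and monocytes was followed through skin wound healing in RNA pulled down with tagged ribosomes. They were taken by symbol from a table of 53700 gene rows. All 38 were found, and all 38 were among the 18656 genes that passed the expression filter. Each of the 8 libraries came from skin of mice with 2 alleles. In AdipoqCreER the adiponectin promoter drives a recombinase that tamoxifen switches on, and R26-NuTRAP is a reporter that puts GFP on ribosomes of recombined cells. All mice received tamoxifen, the controls too, and the labels name the cell type as adipocyte. The groups were uninjured skin (n = 3) and wounded skin whose titles were read as 3 days (n = 2) and 7 days (n = 3) after wounding. The labels' protocols give an age of 7 to 9 weeks and, for wounding, 4 punches of 5 mm through the full skin. Sequencing libraries started from 20 ng of the pulled-down RNA. Strain, sex, and whether each library came from a separate mouse were not stated in the labels, so p-values measure the spread between these libraries, which may be technical.

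Macrophages of skin are partly long-lived resident cells and partly the progeny of blood monocytes that enter a wound. Early in healing they take up debris and release inflammatory mediators, and later they clear dead cells and support matrix building and vessel growth. Genes such as Ccr2, Cd14, Fcgr1 and the Clec4 lectins are commonly linked with recruited or inflammatory cells, and Arg1, Mrc1, Cd163, Trem2 and Gpnmb with resident or repair-type cells, although single genes rarely mark a state cleanly. The 38 genes were therefore read in 3 classes: 8 of inflammatory type, 10 of repair type and 20 general genes of the lineage.

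The libraries held 5308959 to 17751689 counts. Adipocyte markers dominated the labelled cell type's list in every library: 10 of them, of which Cfd and Fabp4 were the highest, summed to 49600 to 105000 CPM (counts scaled to a common library total, with TMM factors) over all libraries. The 38 macrophage and monocyte genes summed to 689 to 2830 CPM, and to 318.7 to 2225 CPM without Lgals3, which epithelia also make. The pull-down thus held RNA of genes listed as macrophage and monocyte markers. Which cells that RNA came from was not tested, and input or unbound RNA was not used here. In such bulk samples, fewer cells of a type and less RNA per cell cannot be told apart. The 2 day 3 libraries differed: replicate 1 held 1461 CPM of 8 luminal epithelial markers and replicate 2 held 18.07 CPM, whereas uninjured libraries held 5.05 to 21.0 CPM and day 7 libraries 574 to 1270 CPM. The deposited column names open with a number that differs between the 3 groups and is shared within each, so whatever it marks cannot be told apart from the group, and no within-batch value exists.

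Promoters of 28 of the 38 genes were found in RefSeq (build GRCm38.p6), and 6 of them are shown because these genes carry the main contrasts of what follows: neighbouring genes of 1 locus (C1qb, C1qc), genes that rose at day 7 (Ctss, Gpnmb), and Trem2 and Mrc1, which had no call. Each sequence is the 200 bases before the annotated start, 5′ to 3′ on the strand of the gene. Capitals mark GAGGAA or its reverse complement, the core bound by PU.1, the ETS factor encoded by Spi1 that directs macrophage development.
C1qb: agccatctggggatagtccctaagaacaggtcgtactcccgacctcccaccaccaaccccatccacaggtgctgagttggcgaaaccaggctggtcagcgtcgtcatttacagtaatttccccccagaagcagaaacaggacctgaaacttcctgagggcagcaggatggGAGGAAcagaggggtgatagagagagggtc
C1qc: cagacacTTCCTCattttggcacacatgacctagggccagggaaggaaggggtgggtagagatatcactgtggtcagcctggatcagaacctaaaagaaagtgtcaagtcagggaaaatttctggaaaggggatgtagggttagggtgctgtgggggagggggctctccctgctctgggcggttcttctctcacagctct
Ctss: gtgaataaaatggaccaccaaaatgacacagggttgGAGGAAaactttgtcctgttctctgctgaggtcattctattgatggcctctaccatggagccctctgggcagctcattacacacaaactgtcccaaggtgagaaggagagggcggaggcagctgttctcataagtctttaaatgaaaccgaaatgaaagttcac
Trem2: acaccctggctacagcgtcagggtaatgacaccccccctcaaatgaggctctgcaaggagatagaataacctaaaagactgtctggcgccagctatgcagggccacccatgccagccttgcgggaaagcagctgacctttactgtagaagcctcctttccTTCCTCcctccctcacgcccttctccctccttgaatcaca
Mrc1: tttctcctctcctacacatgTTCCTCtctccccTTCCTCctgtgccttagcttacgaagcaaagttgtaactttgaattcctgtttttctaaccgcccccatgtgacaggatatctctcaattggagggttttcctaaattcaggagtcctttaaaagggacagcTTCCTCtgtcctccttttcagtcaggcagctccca
Gpnmb: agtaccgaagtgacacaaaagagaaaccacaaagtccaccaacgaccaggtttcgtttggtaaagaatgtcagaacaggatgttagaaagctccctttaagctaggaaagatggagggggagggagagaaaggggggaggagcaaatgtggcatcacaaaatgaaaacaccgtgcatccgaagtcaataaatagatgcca
The windows lie at chr4:136886201-136886400 (minus strand), chr4:136892915-136893114 (minus strand), chr3:95526586-95526785 (plus strand), chr17:48346201-48346400 (plus strand), chr2:14229214-14229413 (plus strand) and chr6:49036318-49036517 (plus strand).
Over the 250 bases before the start, searched on both strands, GAGGAA was present in 15 of the 28 genes (53.6%), against 25.9% of 27025 genes with a promoter in the table. The longer GAGGAAGT, which contains that core, was present in 2 of 28 (7.1%), C1qc and Pf4, against 2.8% of all genes. Mrc1 had 3 matches in its window and Gpnmb had 0. A match describes letters only.

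In uninjured libraries the levels of the 38 genes spanned a wide range per length. Lgals3, a galectin that epithelia and other cells also make, was highest at 230 ± 41.9 CPM per kilobase (SD, n = 3). Cd74, the invariant chain that chaperones MHC class II, followed at 60.4 ± 8.28 CPM per kilobase and Lyz2, the lysozyme of myeloid cells, at 53.4 ± 20.9 CPM per kilobase, and these neighbours lay within their spread of each other. Laptm5, a lysosomal membrane protein of blood cells, was at 28.0 ± 29.4 CPM per kilobase, an SD above its mean. C1qb and C1qa, chains of the first complement component, were at 20.1 ± 8.14 and 19.4 ± 11.0 CPM per kilobase, Fcer1g, the common chain of Fc receptors, at 18.5 ± 9.64 and Pf4, a chemokine of resident macrophages and platelets, at 15.2 ± 10.9 CPM per kilobase, and these 4 did not differ beyond their spread. Clec4d, Cx3cr1 and Chil3 were lowest, at 0.0511, 0.0543 and 0.0545 CPM per kilobase.

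At day 7 the order per length had shifted. Lyz2 was first at 297 ± 130 CPM per kilobase, beside Lgals3 at 273 ± 32.4. Arg1, which breaks down arginine, moved from rank 34 of 38 to rank 16, Clec4d from 38 to 25 and Gpnmb from 30 to 19. Cd163, the haemoglobin scavenger receptor, moved from rank 17 to rank 31 and Laptm5 from 4 to 14. The 3 C1q chains, whose products assemble into 1 protein, kept similar proportions per length: C1qb made up 39.8% to 45.1% of their sum in uninjured libraries and 45.2% to 47.7% at day 7, and C1qc 15.4% to 20.9% and 15.1% to 17.7%.

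At day 7 against uninjured skin, 11 of the 38 genes rose and 0 fell in edgeR's quasi-likelihood test (adjusted p under 0.05 over all genes), where 5.89% of all genes tested rose and 1.89% fell. Without a call at that threshold were 27 genes. Of all 38, 26 had an unadjusted p under 0.05 in the higher direction and 0 in the lower, against 17.1% and 9.7% of all genes. By DESeq2, 22 rose and 0 fell (8.39% and 2.91% of all genes). Without the expression filter 22 rose and 0 fell, against 5.76% and 2.14% of all genes. The fold change was above 1 for 36 of the 38, with a median of 1.78 on the log2 scale against 0.04 over all genes. In 28 genes every day 7 library lay above every uninjured library, against 16.7% of all genes tested, and in 0 genes below. Of the 11 calls, 3 (Arg1, Gpnmb and Clec4d) held without any 1 of the 6 libraries. The count fell to 3 of 314 genes called without uninjured replicate 1 and 5 of 465 without uninjured replicate 3. It fell to 4 of 327 without day 7 replicate 1 and 5 of 370 without day 7 replicate 2. It was 13 of 823 without uninjured replicate 2 and 16 of 4125 without day 7 replicate 3, against 11 of 1450 with all libraries.

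**Figure D1:**
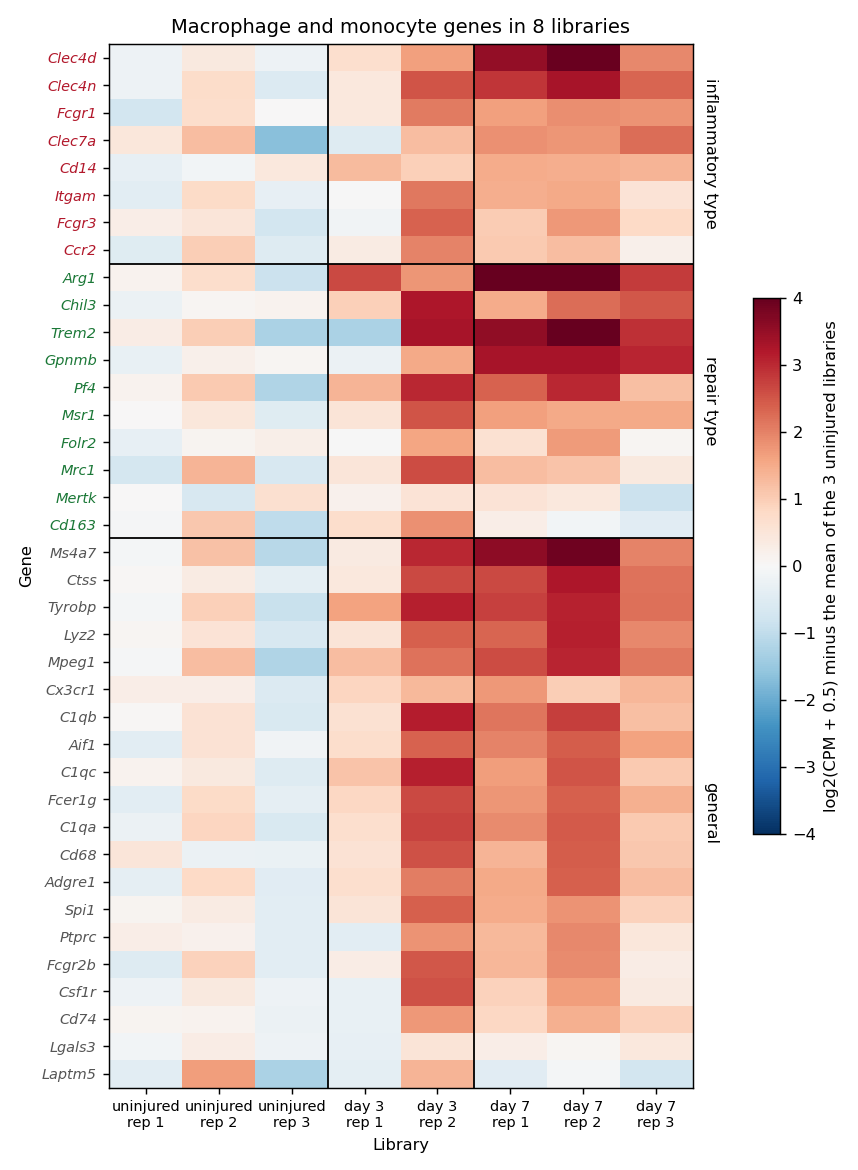
Heat map of the 38 genes (rows, by class and within a class by day 7 fold change) in the 8 libraries (columns). Colour is log2(CPM + 0.5) minus the mean of the 3 uninjured libraries. Day 3 replicate 2 and day 7 replicates 1 and 2 are the reddest columns, day 3 replicate 1 is nearer to uninjured, and Cd163, Mertk and Lgals3 change little at day 7.

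Among the 20 general genes, 5 rose at day 7, against 5.89% of all genes: Ctss, Tyrobp, Lyz2, Aif1 and Mpeg1. Lyz2 was at 70.38, 97.87 and 42.75 CPM in uninjured replicates 1 to 3 and at 336.00, 582.36 and 254.41 CPM in day 7 replicates 1 to 3. The groups were apart, and the rise was 5.55-fold (log2 2.47 ± 0.51 SE, edgeR adjusted p = 0.0221). Between 12.1% and 19.9% of the reads of Lyz2 and its near copy Lyz1 were counted to Lyz1, so the split between the pair is uncertain. Ctss, the cathepsin that prepares the invariant chain for antigen loading, was at 12.44, 15.13 and 8.95 CPM in uninjured and 76.42, 115.99 and 55.10 CPM in day 7 libraries, a 6.73-fold rise (adjusted p = 0.0167). Every day 7 library was several times above the highest uninjured one. Tyrobp, the adaptor DAP12 that carries signals from TREM2 and related receptors, was at 5.12, 11.09 and 2.74 CPM and then 39.06, 49.46 and 26.95 CPM, a 5.90-fold rise (adjusted p = 0.0213). Aif1, the actin-binding protein IBA1, rose 4.17-fold to 23.7 ± 6.90 CPM (n = 3, adjusted p = 0.0224). Mpeg1, a pore-forming protein of phagocytes, rose 5.50-fold to 12.8 ± 4.17 CPM (n = 3, adjusted p = 0.0397). Leaving out uninjured replicate 1 or day 7 replicate 1 ended all 5 of these calls, day 7 replicate 2 all but that of Ctss, and uninjured replicate 3 all but that of Tyrobp. The highest adjusted p without 1 library was 0.0922 for Lyz2, 0.0960 for Aif1, 0.143 for Mpeg1, 0.0917 for Tyrobp and 0.0801 for Ctss.

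The other 15 general genes did not pass at day 7, and the levels of most were still higher in each day 7 library. C1qb was at 21.47, 30.99 and 13.29 CPM in uninjured and 92.60, 142.58 and 48.75 CPM in day 7 libraries, a log2 fold change of 2.10 ± 0.66 (adjusted p = 0.0882). C1qa and C1qc, its partners, had log2 fold changes of 1.78 ± 0.59 and 1.85 ± 0.53 (adjusted p = 0.0998 and 0.0654). In all 3 chains the lowest day 7 library, replicate 3, was above the highest uninjured library. In the deposited table the 3 genes lie side by side on chromosome 4, C1qb at 136607440 to 136613498, C1qc at 136617115 to 136620376 and C1qa at 136623228 to 136626114. Fcer1g was at 16.1 ± 8.42 and 57.7 ± 20.7 CPM (adjusted p = 0.0550), and the inhibitory Fc receptor Fcgr2b at 10.6 ± 6.78 and 24.2 ± 12.2 CPM (adjusted p = 0.266). Among lineage genes, Spi1 was at 4.16 ± 1.18 and 12.0 ± 3.64 CPM (adjusted p = 0.0813), Cd68, a lysosomal glycoprotein, at 5.92 ± 2.06 and 20.3 ± 10.7 CPM (adjusted p = 0.0633), Adgre1, which encodes F4/80, at 3.90 ± 2.30 and 13.6 ± 6.31 CPM (adjusted p = 0.0609) and the CSF1 receptor gene Csf1r at 11.6 ± 2.97 and 24.9 ± 11.6 CPM (adjusted p = 0.285). Csf1r shares 15.1% of its exon bases with Hmgxb3 on the other strand, and the strand setting of the counting was not stated.

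Other general genes spread more or moved less. Ms4a7, a tetraspan protein of macrophages, was at 2.32, 6.19 and 0.87 CPM in uninjured and 34.87, 43.67 and 11.14 CPM in day 7 libraries. The groups were apart, yet the test did not pass (adjusted p = 0.0646, log2 3.17 ± 0.88). Laptm5 was at 54.16, 233.84 and 30.04 CPM and then 52.75, 68.68 and 43.24 CPM. Uninjured replicate 2 stood far above the other uninjured and the day 7 libraries for Laptm5, though day 3 replicate 2 had 188.81 CPM. The log2 fold change of -0.95 ± 0.74 became 0.38 without uninjured replicate 2. Lgals3 was at 427 ± 77.8 and 508 ± 60.1 CPM (adjusted p = 0.582), Cd74 at 101 ± 13.9 and 215 ± 51.0 CPM (adjusted p = 0.124), the leukocyte phosphatase gene Ptprc at 4.37 ± 1.18 and 11.5 ± 5.79 CPM (adjusted p = 0.146) and the fractalkine receptor gene Cx3cr1 at 0.244 ± 0.212 and 1.39 ± 0.5 CPM (adjusted p = 0.109).

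Of the 8 inflammatory-type genes, 3 rose at day 7, the lectin receptors Clec4d and Clec4n and the lipopolysaccharide co-receptor Cd14, against 5.89% of all genes. Clec4d, also a gene of neutrophils, had 0, 4 and 0 counts in the uninjured libraries and was at 6.00, 8.30 and 1.68 CPM at day 7 (edgeR log2 5.38 ± 0.97, adjusted p = 0.0105), a fold that rests on 4 counts. Clec4n, which encodes Dectin-2, was at 0.49, 1.41 and 0.29 CPM and then 7.81, 10.73 and 5.27 CPM, a 9.84-fold rise (adjusted p = 0.0221). All day 7 libraries exceeded all uninjured ones for both lectins. They are neighbours on chromosome 6 in the deposited table, Clec4n at 123206802 to 123223980 and Clec4d at 123239070 to 123252224. Cd14 was at 8.54, 9.98 and 14.44 CPM and then 31.13, 29.95 and 28.15 CPM, a 2.72-fold rise with the tightest day 7 values of the called genes of this class (adjusted p = 0.0107). Cd14 lost the call without uninjured replicate 1 (adjusted p = 0.0654), and Clec4n without 1 of 4 libraries (replicates 1 and 3 of uninjured, 1 and 2 of day 7), with adjusted p up to 0.0934.

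The other 5 inflammatory-type genes did not pass. Fcgr1, the high-affinity IgG receptor, was at 2.37 ± 1.39 and 8.50 ± 0.630 CPM (adjusted p = 0.0660) and Fcgr3, a low-affinity one, at 10.5 ± 4.24 and 24.2 ± 8.97 CPM (adjusted p = 0.215). Clec7a, the beta-glucan receptor Dectin-1, was at 1.65 ± 1.62 and 5.74 ± 1.16 CPM (adjusted p = 0.223). Ccr2, the receptor through which monocytes follow CCL2, was at 3.78, 11.45 and 3.75 CPM in uninjured and 11.89, 13.53 and 6.35 CPM in day 7 libraries. Its groups overlapped (log2 0.71 ± 0.55, adjusted p = 0.417). Itgam, the integrin chain CD11b, was at 2.54 ± 1.52 and 6.09 ± 2.18 CPM (adjusted p = 0.227), and 68.7% of its exon bases are shared with Gm49368 on the same strand.

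Of the 10 repair-type genes, 3 rose at day 7, Arg1, Gpnmb and Chil3, against 5.89% of all genes. Arg1 was at 0.49, 0.98 and 0.00 CPM in uninjured and 19.02, 20.44 and 5.75 CPM in day 7 libraries, a 26.2-fold rise (log2 4.71 ± 0.77, edgeR adjusted p = 0.00748). Gpnmb, a lysosome-associated glycoprotein of lipid-laden macrophages and of melanocytes, was at 2.32, 3.49 and 3.18 CPM and then 33.85, 33.69 and 27.91 CPM, a 10.5-fold rise (log2 3.39 ± 0.43, adjusted p = 0.00255). Its libraries were close within each group and far apart between groups. Chil3, a chitinase-like protein, had 3 counts over the uninjured libraries and 57 at day 7, a ratio of 21.4 on the CPM scale with a 95% interval of 6.97 to 107 that covers counting error only (edgeR adjusted p = 0.0288). Leaving out any uninjured library, or replicate 1 or 2 of day 7, ended the Chil3 call (adjusted p up to 0.101).

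Trem2, the lipid-sensing receptor that signals through Tyrobp, was at 0.98, 1.90 and 0.00 CPM in uninjured and 13.70, 24.82 and 8.62 CPM in day 7 libraries. The groups were apart, but it did not pass (log2 3.88 ± 1.25, edgeR adjusted p = 0.0944). That fit shares its estimate of the spread with the day 3 libraries, where Trem2 was at 0.00 and 11.33 CPM. Fitting only the 2 groups compared gave log2 3.90 ± 0.75 (edgeR adjusted p = 0.0126), and DESeq2 gave an adjusted p of 0.158. Pf4 was at 11.0 ± 7.89 and 49.0 ± 27.9 CPM (adjusted p = 0.0971) and the scavenger receptor gene Msr1 at 1.49 ± 0.639 and 5.17 ± 0.230 CPM (adjusted p = 0.0846). Cd163 was at 11.83, 26.40 and 5.78 CPM in uninjured and 14.94, 11.29 and 8.86 CPM at day 7 (adjusted p = 0.678, log2 -0.35 ± 0.49), and its sign turned without uninjured replicate 2 (log2 0.40). Mrc1, the mannose receptor CD206, was at 8.54, 36.99 and 8.95 CPM and then 34.53, 32.10 and 18.93 CPM (log2 0.63, adjusted p = 0.585), with a log2 fold change of 1.70 without uninjured replicate 2. That library was thus the highest library of both groups for Cd163 and Mrc1. Mertk, a receptor for dead cells, was at 9.30 ± 4.19 and 9.78 ± 4.57 CPM (adjusted p = 0.916), and Folr2, a folate receptor of resident macrophages, at 0.437 ± 0.173 and 1.30 ± 1.08 CPM (adjusted p = 0.263), with 63.1% of its exon bases shared with Gm10602 on the other strand.

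**Figure D2:**
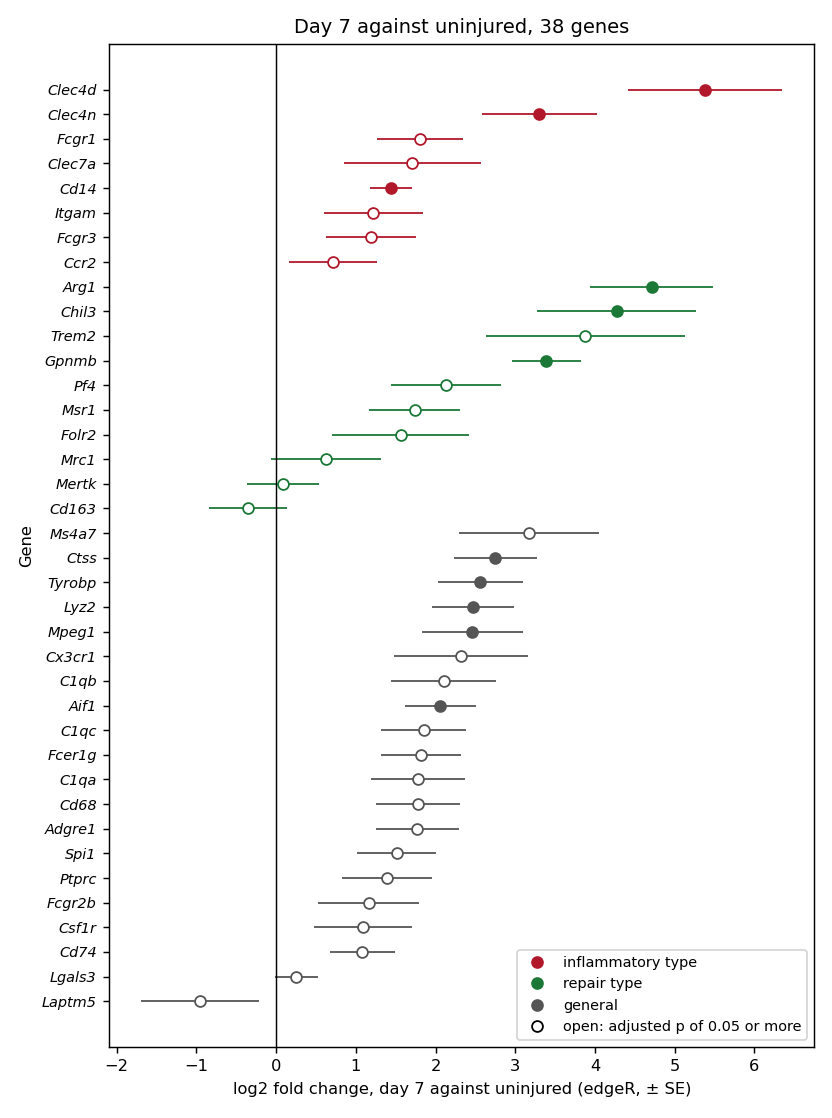
Log2 fold change at day 7 against uninjured (horizontal axis, edgeR, bars are ± SE) for the 38 genes, grouped and coloured by class, with filled points for adjusted p under 0.05. The 11 filled points all lie to the right of 0, from 1.44 for Cd14 to 5.38 for Clec4d, and the points left of 0 are Cd163 and Laptm5, both open.

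Inflammatory-type and repair-type genes were then compared with each other, within each library, on the mean of log2(CPM + 0.5) over each class. The repair-type mean minus the inflammatory-type mean was 0.15, -0.06 and 0.05 in uninjured replicates 1 to 3, 0.27 and 0.37 in day 3 replicates 1 and 2, and 0.14, 0.16 and -0.04 in day 7 replicates 1 to 3. Both classes moved together, and the uninjured and day 7 differences overlapped. Both day 3 libraries lay above the rest, a description of 2 libraries. At day 7 the classes had calls in 3 of 8 and 3 of 10 genes and medians of 1.57 and 1.93 on the log2 scale, with 5 of 20 and 1.80 for the general genes. Fold changes ran from 0.71 to 5.38 in the inflammatory-type class and from -0.35 to 4.71 in the repair-type class on that scale. The difference between the classes was not tested.

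**Figure D3:**
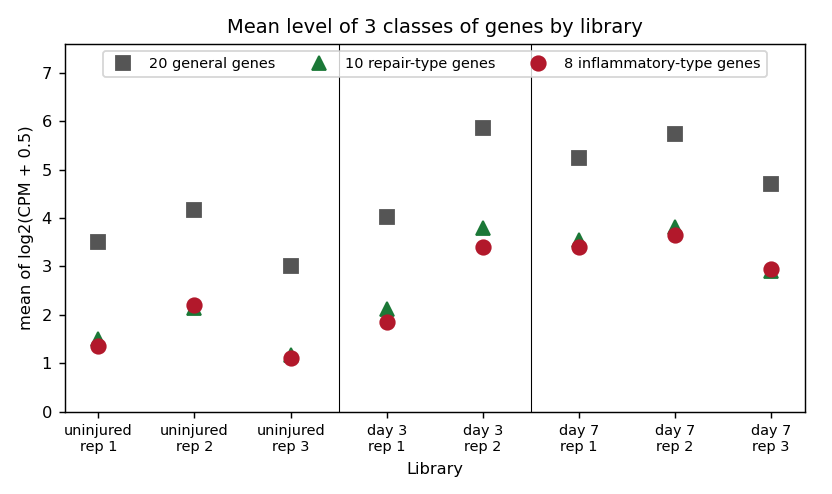
Mean of log2(CPM + 0.5) over the 8 inflammatory-type genes (circles), 10 repair-type genes (triangles) and 20 general genes (squares) in each library. The circles and triangles nearly coincide, between 1.11 and 3.81, and day 7 replicate 2 has the highest circle and triangle and day 3 replicate 2 the highest square.

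Because nearly all 38 genes were higher after wounding, each gene was also set against the mean of the 20 general genes of the same library (log2 CPM + 0.5, a choice made with the values known, given as a description). On this scale 10 of the 38 genes were higher in every day 7 library than in every uninjured library, and 6 were lower. Of all genes tested 1.63% were higher and 69.3% lower, since the reference itself rises. The 20 general genes make up that reference, so their relative changes cancel out over the 20. Of the 10 and the 6 genes, 5 and 3 were general genes, whose higher and lower positions are tied to each other. The 10 were Lyz2, Arg1, Tyrobp, Ctss, Trem2, Gpnmb, Clec4d, Clec4n, Mpeg1 and Ms4a7. Arg1 gained 2.26, Trem2 1.95, Gpnmb 1.55, Ms4a7 1.49, Clec4d 1.46, Clec4n 1.17 and Ctss 1.01 on the log2 scale relative to the general genes. Ctss was at 0.20, -0.20 and 0.22 in uninjured and 1.02, 1.13 and 1.08 in day 7 libraries, with day 3 at 0.04 and 0.41. The day 7 values of Ctss lay within a narrow band although the general mean itself ran from 4.71 to 5.73 there.

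The 6 genes that were lower relative to the general mean were Csf1r, Cd163, Fcgr3, Lgals3, Ccr2 and Laptm5. Cd163 was at 0.13, 0.58 and -0.37 in uninjured, 0.34 and -0.35 in day 3, and -1.29, -2.17 and -1.48 in day 7 libraries. Day 3 and uninjured values of Cd163 overlapped, and the day 7 values were below both. Ccr2 was at -1.40, -0.59 and -0.93, then -1.12 and -1.29, then -1.61, -1.92 and -1.94. On average Laptm5 was lower by 2.09, Cd163 by 1.76, Lgals3 by 1.41, Ccr2 by 0.85, Csf1r by 0.68 and Fcgr3 by 0.48 at day 7 than in uninjured libraries on this relative log2 scale. The inflammatory class thus held genes of both kinds, 2 higher and 2 lower, and the repair class 3 higher and 1 lower. At day 3, 5 of the 38 were higher than in uninjured libraries on this scale (Tyrobp, C1qb, C1qc, Fcer1g and Pf4) and 5 lower (Lgals3, Cd74, Gpnmb, Laptm5 and Ptprc), against 0.289% and 38.9% of all genes. Between day 7 and day 3, 10 were higher and 8 lower, against 3.71% and 2.46%. Of these, 5 and 5 were general genes, which form the reference, as were 4 and 4 of those at day 3 against uninjured. Values of Clec4d, Arg1, Trem2, Clec7a, Cx3cr1 and Chil3 on this scale depend on the added 0.5 CPM in libraries without a count. Clec4n, Mpeg1 and Folr2 were under 0.5 CPM in at least 1 uninjured library, so their values depend on it too. The class means include these genes.

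**Figure D4:**
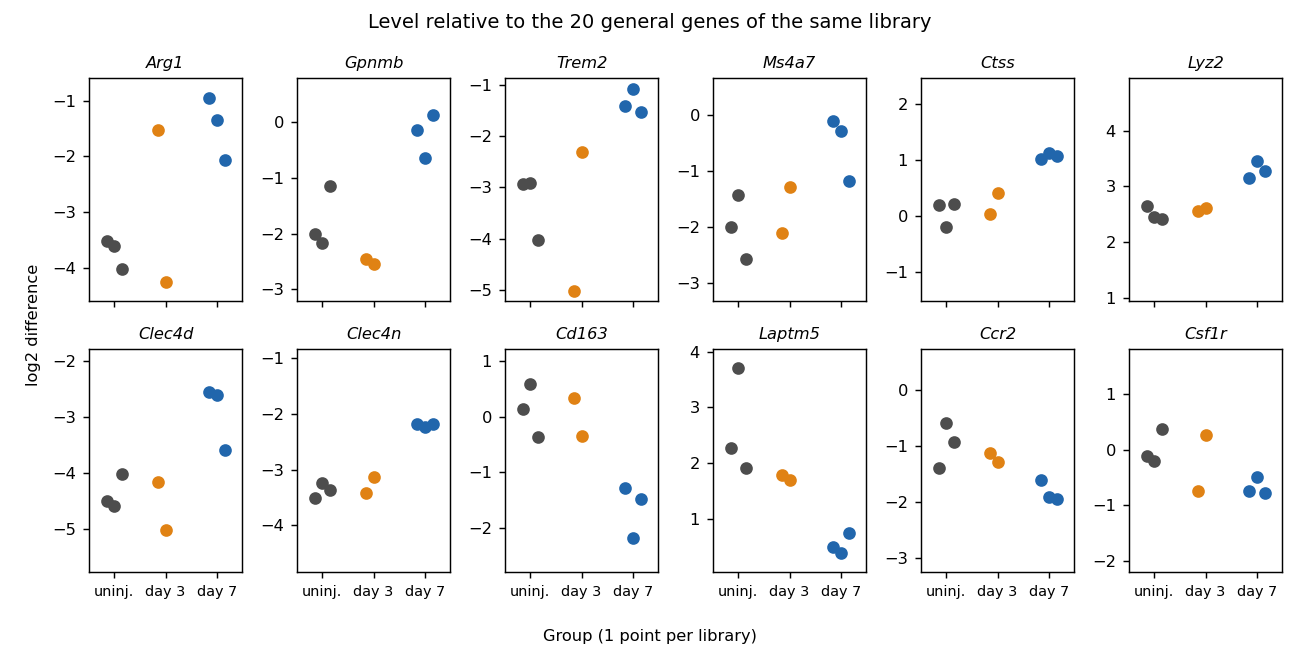
Level of 12 genes relative to the mean of the 20 general genes of the same library (vertical axis, log2 difference, each panel with its own offset), 1 point per library by group. Day 7 points lie above all uninjured points for the first 8 genes, Arg1 to Clec4n, and below them for Cd163, Laptm5, Ccr2 and Csf1r.

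At day 3 against uninjured skin, 0 of the 38 genes passed edgeR's test in either direction, as did 0.0% of all genes tested. All 38 had a positive fold change, with a median of 1.72 on the log2 scale against 0.02 over all genes, and 25 had an unadjusted p under 0.05, against 7.52% of all genes in that direction. By DESeq2, 14 of the 38 rose and 0 fell, where 1.86% of all genes rose and 0.567% fell. Without the filter 17 rose and 0 fell, against 1.53% and 0.551%. The day 3 libraries did not share these levels. Replicate 2 was above replicate 1 in 36 of the 38 genes, by a median of 1.85 on the log2 scale, against 51.7% of all genes tested and a median of 0.03. Replicate 2 was above every uninjured library in 36 genes and replicate 1 in 15, against 30.7% and 32.8% of all genes. In 15 of the 38 genes both day 3 libraries were above all uninjured ones, against 16.9% of all genes tested.

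C1qb shows the split between the day 3 libraries. It was at 31.67 CPM in replicate 1 and 187.84 CPM in replicate 2, where uninjured libraries had 13.29 to 30.99 CPM (log2 2.32 ± 0.71, edgeR adjusted p = 0.266). Replicate 1 was level with the highest uninjured library and replicate 2 was the highest of all 8. Csf1r was at 9.25 and 69.71 CPM, against 9.88, 15.07 and 9.96 CPM in uninjured libraries, and its log2 fold change of 1.77 ± 0.67 became -0.36 without replicate 2. Tyrobp was at 17.68 and 51.32 CPM, both above the uninjured maximum of 11.09 CPM (log2 2.41 ± 0.56, adjusted p = 0.206). Arg1 split the other way, at 5.14 and 2.57 CPM, where no uninjured library exceeded 0.98 CPM (adjusted p = 0.241). Cd14, at 26.73 and 21.06 CPM, was the only other gene with the higher value in replicate 1. Chil3 was at 0.62 and 5.02 CPM, from 3 and 47 counts (adjusted p = 0.191).

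With replicate 1 of day 3 left out, 5 of the 38 genes passed (Csf1r, C1qb, C1qc, Ctss and Chil3), against 0.15% of all genes, with the remaining day 3 library assumed to vary like the other groups. With replicate 2 left out, 0 passed, against 0.631% of all genes higher and 0.117% lower. Replicate 1, the library with 1461 CPM of luminal epithelial markers, also held 1682 CPM of 10 fibroblast markers, where replicate 2 held 4940 CPM. The 9 MHC class II genes split likewise, at 103.6 and 453 CPM, and neutrophil markers the other way, at 181 and 115 CPM. The part of these differences in the day 3 result was not tested.

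Between day 7 and day 3, 0 of the 38 genes passed in edgeR in either direction, against 0.0804% of all genes higher and 0.0429% lower. An unadjusted p under 0.05 was found for 3 in the higher and 1 in the lower direction, against 6.29% and 4.67% of all genes. DESeq2 called 1 of the 38, Gpnmb, against 0.844% of all genes higher and 0.487% lower. Gpnmb was also called in edgeR without day 3 replicate 2, where 0.068% of all genes were higher and 0.0631% lower, and 0 of the 38 were called without replicate 1 (0.116% and 0.0725%). Without the filter, Arg1 and Gpnmb were higher and Cd163 lower, against 0.747% and 0.463%. Gpnmb was at 2.47 and 9.41 CPM at day 3 and 27.91 to 33.85 CPM at day 7 (log2 2.37 ± 0.48, edgeR adjusted p = 0.125, range over alternatives 1.54e-05 to 0.446). Its groups did not overlap, which held in the higher direction for 5 of the 38 genes and 14.2% of all genes tested. Clec4d was at 0.41 and 1.28 CPM and then 1.68 to 8.30 CPM (log2 2.55 ± 0.92, adjusted p = 0.398), and Arg1 had a log2 fold change of 2.0 ± 0.77 (adjusted p = 0.408). Cd163 was at 20.15 and 45.01 CPM and then 8.86 to 14.94 CPM (log2 -1.48 ± 0.54, adjusted p = 0.399), the only 1 of the 38 whose day 7 libraries were all below both day 3 libraries, against 11.4% of all genes. Mrc1 was at 19.95 and 90.23 CPM and then 18.93 to 34.53 CPM (log2 -0.96 ± 0.75, adjusted p = 0.650), and its sign turned without day 3 replicate 2 (log2 0.52). These day 7 values also enter the comparison with uninjured skin, so the comparisons share libraries.

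Of 22 listed genes outside the 38 that are linked with inflammatory macrophages, 15 passed the expression filter. Among these 15, 5 rose and 0 fell at day 7, against 5.89% and 1.89% of all genes (median log2 fold change 2.5). Which cells their RNA came from was not tested. Plac8, of monocytes and other cells, rose 11.5-fold (adjusted p = 0.00786), the chemokine genes Ccl2 and Ccl7, both attracting CCR2-bearing monocytes, 7.89-fold and 5.22-fold (adjusted p = 0.0197 and 0.0293), and Tnf 14.9-fold to at most 3.92 CPM (adjusted p = 0.0224). Cxcl2, a neutrophil attractant, was called (adjusted p = 0.0435), yet day 7 replicate 3 had 0.00 CPM against 4.30 and 4.57 CPM in replicates 1 and 2. Il1b was at most 0.24 CPM in uninjured libraries, 0.00 and 5.02 CPM at day 3, and 1.08 to 2.71 CPM at day 7 (adjusted p = 0.104). Leaving out 1 library ended the call for Ccl7 (each uninjured library, day 7 replicate 1 or 2), Ccl2 (uninjured replicate 1, day 7 replicate 2), Tnf (uninjured replicate 1 or 3, day 7 replicate 1) and Cxcl2 (each uninjured library).

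Of 22 genes linked with repair, 20 passed the expression filter. Among these 20, 4 rose and 1 fell at day 7, against 5.89% and 1.89% of all genes (median 0.73). Spp1, which encodes osteopontin, was at 0.98, 0.67 and 0.72 CPM in uninjured, 2.67 and 3.96 CPM in day 3, and 59.21, 85.38 and 39.53 CPM in day 7 libraries. It rose 77.8-fold at day 7 (log2 6.28 ± 0.40, adjusted p = 3.7e-05) and also passed between day 7 and day 3. Slc40a1, the iron exporter ferroportin, rose 5.22-fold (adjusted p = 0.00328), Fn1, fibronectin, 8.07-fold (adjusted p = 0.0101) and Hmox1, which breaks down haem, 2.43-fold (adjusted p = 0.0415). Gas6, a ligand of MERTK, fell from 3021.13 to 3496.96 CPM in uninjured to 445.25 to 1404.25 CPM at day 7 (adjusted p = 0.0435, log2 -1.62 ± 0.43). All 38 genes together summed to 689 to 1320 CPM in uninjured libraries. Which cells the RNA of these repair-linked genes came from was not tested. The Gas6 and Hmox1 calls were lost without any 1 uninjured library or day 7 replicate 1 or 2, and that of Fn1 without uninjured replicate 1 or day 7 replicate 1. Lyve1, a marker of resident perivascular macrophages and of lymphatic vessels, was at 5.61, 13.60 and 2.60 CPM, then 12.54 and 23.09 CPM, then 2.38, 2.43 and 0.36 CPM (day 7 log2 -2.08 ± 0.69, adjusted p = 0.0886). Its day 7 values were below those of all other libraries, whereas the uninjured and day 7 values of Cd163 in CPM overlapped.

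All 18 listed genes of the signalling that Tyrobp and Fcer1g feed passed the expression filter, and 2 rose at day 7. They were Cyba, a subunit of the phagocyte oxidase that other cells also make (5.34-fold, adjusted p = 0.0198), and the phospholipase Plcg2 (5.35-fold, adjusted p = 0.0418). The 2 are 11.1% of that list, against 5.89% of all genes, and the list's median was 1.55. Among 15 growth factor and transcription factor genes tested, Csf2rb, the shared chain of the GM-CSF receptor, rose 3.27-fold (adjusted p = 0.0303). That is 6.67% of the list, near the share of all genes, and its median was 0.67. Of 7 MHC class II genes tested, 0 passed in edgeR, with a median of 1.19, and 3 had an unadjusted p under 0.05. Lysosomal genes, which adipocytes express too, had a median of -0.24 over 14 genes, and Ctsk, a collagen-degrading cathepsin of fibroblasts and osteoclasts, rose 6.29-fold (adjusted p = 0.0128). Leaving out uninjured replicate 1 or day 7 replicate 1 ended all 4 of these calls, day 7 replicate 2 or uninjured replicate 3 also those of Cyba, Plcg2 and Csf2rb, and uninjured replicate 2 those of Plcg2 and Csf2rb.

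Markers of other cells moved beside the 38 genes. Summed over each list, uninjured and day 7 libraries held 72.9 to 164 and 125 to 463 CPM of 8 endothelial markers (6 rose), 1700 to 2210 and 6780 to 13200 CPM of 10 fibroblast markers (7 rose), and 80400 to 101000 and 49600 to 105000 CPM of 10 adipocyte markers (0 passed in edgeR, 0 and 3 with an unadjusted p under 0.05 higher and lower). For 12 neutrophil markers, cells that also make Clec4d, the sums were 54.9 to 123 and 70.3 to 113 CPM. S100a8 was at 70.62, 101.42 and 32.21 CPM and then 41.77, 46.94 and 24.67 CPM, Ltf at 0.00, 0.18 and 0.14 CPM and then 24.79, 15.68 and 10.42 CPM, with 121.74 and 0.64 CPM at day 3, and S100a9, named for being the list's 1 call, rose 13.0-fold. For 7 melanocyte markers, cells that also make Gpnmb, the sums were 219 to 492 and 299 to 1100 CPM (1 of 6 tested rose). Day 7 replicates 1, 2 and 3 held 1105, 298.7 and 465.6 CPM of these, whereas Gpnmb was at 33.85, 33.69 and 27.91 CPM. Keratinocyte markers, of cells that also make Lgals3 and Arg1, summed to 1590 to 2480 and 1550 to 5570 CPM (0 of 10 passed in edgeR, and 0 had an unadjusted p under 0.05). The sums of 9 dendritic and Langerhans cell markers, 21.1 to 27.8 and 63.7 to 125 CPM, were in large part Epcam, a gene of epithelia too and the list's 1 call, at 8.54, 9.06 and 8.23 CPM and then 103.25, 89.67 and 50.19 CPM. Of other leukocytes, 8 mast cell markers summed to 14.5 to 21.6 and 36.1 to 93.3 CPM. Of 6 mast cell markers tested 2 rose, or 33.3%, against 5.89% of all genes. The 10 lymphoid markers summed to 5.92 to 9.49 and 9.58 to 12.6 CPM, and 0 of 6 tested passed. Of 8 luminal epithelial markers 5 rose. Of 8 skeletal muscle markers all 8 fell, from 4320 to 9650 CPM to 734 to 1320 CPM. No listed marker of these types was at 0 in all 8 libraries. The part of these cells in the rises of single genes was not tested.

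The libraries that stood out did so for most of the 38 genes at once. Uninjured replicate 2 was the highest uninjured library in 32 of 38 genes, against 39.1% of all genes tested. Day 7 replicate 3 was the lowest day 7 library in 32 of 38, against 43.3%. Day 3 replicate 2 exceeded all day 7 libraries in 20 of 38, against 22.9%, among them the 3 C1q chains, Csf1r, Mrc1, Cd163, Cd68 and Chil3. It was the highest of the 8 libraries for 19 genes and day 7 replicate 2 for 13.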

How the data were processed

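The values deposited by the authors are raw read counts per gene and library. Reads were counted with featureCounts 2.0.8, per the file headers. The submitters' processing notes also name STAR 2.7.10b, DESeq2 and mm10. No source used here states how strand or multiply matching reads were handled. The table's gene length, deposited by the authors, served only for levels per kilobase. Of 53700 identifiers, 52093 were matched to symbols (GENCODE M21). None of the 38 genes has its GRCm38 start in the table, so coordinates of genes are the table's own, of an unsettled build, and promoter windows are GRCm38.p6 (RefSeq).

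Counts were TMM-scaled and tested with edgeR 4.0.16 (R 4.3.3): expression filter with a minimum count of 10, 1 mean per group over 8 libraries (5 residual degrees of freedom), robust quasi-likelihood F test, two-sided, Benjamini-Hochberg adjustment over 18656 genes at 0.05. Each SE is the log2 fold change divided by the root of its F. Class means used log2(CPM + 0.5). DESeq2 1.42.0, other scalings and filters, 2-group fits, a replicate term and leaving out each library were alternatives. On simulated data, 83.0%, 70.7% and 77.0% of genes changed 4-fold and 15.3%, 9.33% and 7.67% of those changed 2-fold were recovered at day 7 against uninjured, day 3 against uninjured and day 7 against day 3 (3 runs each over a mean of 16732, 16682 and 16738 genes), with 25, 23 and 24 false calls over the runs. Only genes of at least 5 CPM were changed, and 17 of the 38 lie below that in uninjured libraries, so their recovery was not tested.

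The 38 genes, classes and lists were chosen with earlier results of these data known. All 38 are named. Of other lists, genes that passed were named, at most 5 by smallest p, with up to 3 that did not, and for other cell types the 2 highest.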

Additional observations from a re-analysis of the deposited data

Results flagged for a closer look

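The wound response of Spp1, which encodes osteopontin and is listed among repair genes, differed between the times: its log2 fold change at day 7 exceeded that at day 3 by 4.17 in edgeR's test of day 7 against day 3 (adjusted p = 0.00345, range over alternatives 4.25e-20 to 0.0207). All 3 day 7 libraries were higher than both day 3 libraries. Of the 38 genes, 0 met the same test in edgeR and 1 did in DESeq2. In edgeR 3 higher and 1 lower had an unadjusted p under 0.05, against 6.29% and 4.67% of all genes. No group had enough libraries for a test of single outlying values.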

How the results depend on the processing

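In the main analysis, 1450 genes and 11 of the 38 were called at day 7 against uninjured, 0 and 0 at day 3, and 23 and 0 between day 7 and day 3. Under DESeq2 these were 2501 and 22, 429 and 14, and 235 and 1. Without a filter they were 3057 and 22, 804 and 17, and 468 and 2, with 1 of the 38 lower between day 7 and day 3. Fitting only the 2 groups compared gave 1473 genes and 23 of the 38 at day 7, 0 and 0 at day 3, and 12 and 0 between day 7 and day 3. Upper-quartile scaling gave 1 gene at day 3, and fitting without robust estimation, an alternative chosen after seeing the data, 2. With the replicate block 2183 genes and 24 of the 38, 15 and 1, and 138 and 1 were called. Same-numbered libraries correlated in their deviations from the group means between -0.07 and 0.20, so the numbers were not taken to pair them, and not every library correlated best with its own number. Without 1 library, calls ranged from 314 to 4125 genes and 3 to 16 of the 38 at day 7, 0 to 154 and 0 to 5 at day 3, and 7 to 59 and 0 to 1 between day 7 and day 3. DESeq2 size factors in edgeR and the filter of 1 CPM in 2 libraries kept all these counts within 1.5 times. Signs were followed over the alternatives for all 38 genes at day 7. At day 3 they were followed only for Tyrobp, C1qb, C1qc, Arg1, Chil3, Ctss and Csf1r. Between day 7 and day 3 they were followed only for Gpnmb, Arg1, Clec4d, Cd163, Mrc1 and Spp1. Among those followed, signs turned only when 1 library was left out. Log2 fold changes at day 7 then ran from -0.72 to 0.40 for Cd163, -0.20 to 0.48 for Mertk and -1.39 to 0.38 for Laptm5. They ran from -0.36 to 2.57 at day 3 for Csf1r, and from -1.67 to 0.52 between day 7 and day 3 for Mrc1. The cause was not tested. Trem2 had 0 counts in day 3 replicate 1, the shallowest library, where a count of 0 allows up to 0.617 CPM by counting error alone.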
